A study of Homo sapiens with 2 samples.

Results

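Fatty acid and triglyceride synthesis genes and lipid droplet genes were examined in HepG2, a human liver cancer line, after induction of SAMD4B. The 10 genes were given by name: FASN, ACACA, ACLY, SCD, ELOVL6, FADS1, SREBF1, DGAT2, PLIN2 and ACSL1. All 10 had matched transcripts, 113 in all, and a mean level of at least 1 TPM, which put them among the 11582 genes compared. TPM states the abundance of a transcript, adjusted for its length, relative to all transcripts of the same library. The cells carried a doxycycline-switched (Dox-on) SAMD4B cassette and were grown with 1 µg/ml Dox for 48 h or without Dox. Polyadenylated RNA gave 1 library with Dox and 1 library without Dox. Whether the cells were 1 clone or a pool, and which promoter drives the cassette, is not said in the labels, and cells given Dox without the cassette were not analysed here. An effect of Dox and an effect of SAMD4B therefore cannot be told apart. With 1 library per group no test of the treatment was possible, no p-value is given, and each difference is one between these libraries.

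In hepatocytes, cytosolic citrate is split to acetyl-CoA, which is carboxylated and built into palmitate, then elongated, desaturated and esterified to triglyceride. Triglyceride is stored in lipid droplets, whose surface is coated by perilipins. SREBP-1, the product of SREBF1, is a membrane-bound transcription factor that drives much of this pathway when its cleaved form reaches the nucleus. SAMD4B belongs to the Smaug family, named for a fly protein that binds mRNAs, represses their translation and recruits deadenylases to them.

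The library labelled as induced held more SAMD4B, with 261 TPM with Dox and 47.5 TPM without Dox. Low TPM values fell in steps worth single fragments. From these, 23786182 fragments with Dox and 18513363 without Dox were estimated on matched transcripts of at least 600 nt. These sums are used as depths and leave out shorter and unmatched transcripts, so they are not whole-library depths. Fragment counts below are estimates, their ratios are scaled by these depths, and their 95% intervals cover counting error only. All 10 hepatocyte markers looked up were detected, including AFP at 12140 TPM with Dox and 13406 TPM without Dox and ALB at 407 and 445 TPM. Of 10 markers of other cell types, 7 were below a mean of 1 TPM, and PTPRC and VWF were listed at 0 in both libraries. LYZ was at 1742 TPM with Dox and 1583 TPM without Dox, CD68 at 11.3 and 10.7 TPM, and PECAM1 at 4.55 and 4.57 TPM, none of them 1.5-fold apart.

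Upstream regions, the 250 bases before the RefSeq start (GRCh38.p14), were found for 8 of the 10 genes. FASN and DGAT2 had no entry. ACACA, ACLY and ACSL1 had 3, 2 and 5 regions. For these, only the region nearest the start of the most abundant complete coding mRNA without Dox was searched, so their other starts are not covered. The E-box letters CACGTG, which SREBP-1 and other basic helix-loop-helix factors can bind, occurred in 1 of the 8 regions, that of PLIN2, and in 6.34% of 35116 regions of the same length. The match is printed because PLIN2 differed most between the libraries. It is shown in capitals with 12 bases on each side (chr9:19127544-19127573, minus strand), and lies 69 bases before the RefSeq start and 15 bases inside the annotated PLIN2-201 transcript.
PLIN2 E-box: gctgccgcgggtCACGTGctgcggaggctt
CCAAT, on either strand, occurred in 3 of the 8 regions (ACACA, ACLY and SCD) and in 32.0% of all regions. The sterol regulatory element letters TCACNCCAC occurred in none of the 8 and in 0.883% of all regions. A PPAR element, a direct repeat of AGGTCA spaced by 1 base, occurred in none of the 8 and in 0.0171% of all regions. Both strands were searched, and a match is a description of letters, not a bound site.

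Alternative coding exons distinguish the complete mRNAs of ACLY and DGAT2. They are printed as mRNA sense from GENCODE transcripts (GRCh38), with the exon in capitals between 10 bases of each neighbour. The ACLY exon is exon 14 of ACLY-201, chr17:41896620-41896649, minus strand, with 30 bases. The DGAT2 exon is exon 2 of DGAT2-201, chr11:75784618-75784746, plus strand, with 129 bases.
ACLY exon 14: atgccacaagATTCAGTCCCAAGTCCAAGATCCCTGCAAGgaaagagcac
DGAT2 exon 2: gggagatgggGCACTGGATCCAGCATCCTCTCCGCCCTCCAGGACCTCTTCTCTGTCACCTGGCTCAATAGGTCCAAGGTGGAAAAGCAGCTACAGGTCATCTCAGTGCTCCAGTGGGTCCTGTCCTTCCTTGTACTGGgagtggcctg

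On summed TPM, PLIN2, ACSL1 and ELOVL6 (3 of the 10 genes) were higher with Dox by 1.5-fold or more, and FASN and DGAT2 (2 of the 10) were lower by 1.5-fold or more. The other 5 lay within 1.5-fold. Among all genes compared, 5.32% were higher and 3.90% lower by as much. The genes were picked with results of these libraries known, so the share is given as background and nothing is read from it about them. The median log2 fold change was 0.01 over the 10 genes and 0.02 over all genes compared. Fold changes are on the scale of TPM plus 1, which understates differences of low genes. In a bulk library, a lower level in each cell and fewer cells with the transcript cannot be told apart.

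**Figure D1:**
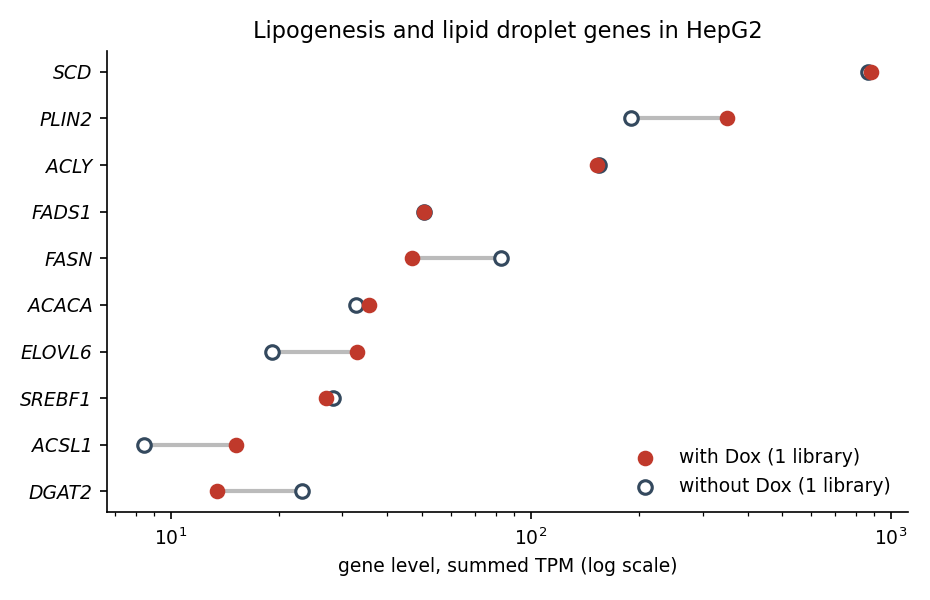
Summed TPM of each gene (log axis) with Dox (filled circles) and without Dox (open circles), 1 library each, with a line joining the pair. SCD had the highest level, 882 TPM with Dox and 866 TPM without Dox, and the circles overlap for SCD, ACLY and FADS1.

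Gene positions are GENCODE coordinates on GRCh38. FASN, the multifunctional enzyme that makes palmitate (ENSG00000169710, chromosome 17, 82078333 to 82098332, minus strand), was lower with Dox. Its summed level was 46.8 TPM with Dox and 82.5 TPM without Dox, a log2 fold change of -0.81. In fragments the ratio was 0.61 (interval 0.59 to 0.63), from 6245 fragments with Dox and 7987 without Dox. All 4 FASN transcripts at 1 TPM or more in either library were lower. FASN-202 reached this level only without Dox, so the cutoff fixed its direction. The complete mRNA FASN-201, 8565 nt in 43 exons, was at 39.9 TPM with Dox and 63.1 TPM without Dox (fragment ratio 0.61). The short 5-prime coding model FASN-207, of 627 nt, was at 3.85 and 11.5 TPM. Retained-intron models of FASN summed to 3.06 TPM with Dox and 7.89 TPM without Dox, or 6.54% and 9.56% of the gene. Of these, FASN-205 was at 3.06 TPM with Dox and 4.36 TPM without Dox, and its fragment ratio of 0.69 had an interval of 0.42 to 1.15 that includes no difference. FASN-202 was listed at 0 with Dox and at 3.53 TPM without Dox.

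The steps before FASN were close to level. ACLY, which cleaves citrate to supply acetyl-CoA (ENSG00000131473, chromosome 17, 41866908 to 41930542, minus strand), was at 153 TPM with Dox and 155 TPM without Dox (log2 fold change -0.018), and in fragments the ratio was 0.96 (interval 0.93 to 0.99). ACACA, the carboxylase that makes malonyl-CoA (ENSG00000278540, chromosome 17, 37084988 to 37406818, minus strand), was at 35.5 TPM with Dox and 32.7 TPM without Dox (ratio of 1.08 in fragments, interval 1.04 to 1.13). ACACA-231, the 9554 nt mRNA with 56 exons, was at 32.6 TPM with Dox and 28.6 TPM without Dox, or 92.0% and 87.4% of the gene. A second complete ACACA mRNA, ACACA-237, starts farther upstream. It was listed at 0 TPM with Dox and at 0.79 TPM without Dox. ACACA-236, a 1468 nt model annotated for nonsense-mediated decay, also starts farther upstream and went the other way. It was at 1.51 TPM with Dox and listed at 0 without Dox, so no direction is read for the upstream start. FASN was lower while both enzymes ahead of it differed by under 1.1-fold.

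Nearly all ACLY TPM lay on 4 complete mRNAs. ACLY-201 was at 45.8 TPM with Dox and 38.4 TPM without Dox, ACLY-207 at 44.3 and 49.4 TPM, ACLY-202 at 51.5 and 55.1 TPM, and ACLY-203 at 8.73 and 9.57 TPM. The 30-base exon shown above was included in 59.9% of complete ACLY mRNA TPM with Dox and in 57.6% without Dox. The exon holds 10 codons within the coding sequence. ACLY-201 was higher with Dox and the other 3 were lower, and the sum was nearly equal. Salmon assigns fragments among such near-identical mRNAs by their few distinguishing bases, so this split is less certain than the sum.

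Desaturases were level. SCD, the delta-9 desaturase that makes oleate (ENSG00000099194, chromosome 10, 100347124 to 100364834, plus strand), was the most abundant of the genes, at 882 TPM with Dox and 866 TPM without Dox on its only matched transcript. Its fragment ratio was 0.99 (interval 0.98 to 1.00), from 83871 fragments with Dox and 66001 without Dox, the tightest of the group. FADS1, the delta-5 desaturase of polyunsaturated fatty acids (ENSG00000149485, chromosome 11, 61799625 to 61829318, minus strand), was at 50.6 TPM with Dox and 50.7 TPM without Dox (ratio of 0.97 in fragments, interval 0.93 to 1.02). Its complete mRNA FADS1-201 held 94.5% of the gene with Dox and 93.9% without Dox, at 47.8 and 47.6 TPM. For these genes a difference of 1.1-fold or more lay outside the counting interval.

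ELOVL6, the elongase that extends palmitate to stearate (ENSG00000170522, chromosome 4, 110045846 to 110199199, minus strand), was higher on summed TPM but not in its complete mRNAs. The sum was 32.9 TPM with Dox and 19.1 TPM without Dox, a log2 fold change of 0.75. The complete mRNA ELOVL6-201 was at 7.10 TPM with Dox and 7.53 TPM without Dox. ELOVL6-202, with a longer 3-prime end, was at 3.45 and 3.65 TPM. Together they gave a fragment ratio of 0.91 (interval 0.82 to 1.02).

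The whole ELOVL6 excess lay on models under 600 nt, which summed to 19.4 TPM with Dox and 5.33 TPM without Dox. ELOVL6-207, a non-coding model of 204 nt, was at 10.4 TPM with Dox and 3.14 TPM without Dox. ELOVL6-203, a 458 nt coding fragment, was at 8.99 TPM with Dox and listed at 0 without Dox. ELOVL6-204, of 575 nt, went the other way, listed at 0 with Dox and at 2.19 TPM without Dox. Models this short hold few positions for a fragment, so 1 fragment carries much TPM, and their depth could not be estimated. The TPM of ELOVL6 models of at least 600 nt was 13.5 with Dox and 13.8 without Dox.

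SREBF1 (ENSG00000072310, chromosome 17, 17810399 to 17837002, minus strand) was level on summed TPM, at 27.0 TPM with Dox and 28.2 TPM without Dox, but most of that TPM was not on coding transcripts. Retained-intron models held 62.2% of the gene with Dox and 66.6% without Dox. These are shares of TPM, in which 1 fragment on a short model weighs much. In estimated fragments on transcripts of at least 600 nt, the complete SREBF1 mRNAs held 551 of 677 with Dox and 443 of 496 without Dox. Coding models summed to 9.62 TPM with Dox and 9.28 TPM without Dox. Among the retained-intron models, SREBF1-209 was listed at 0 with Dox and at 11.9 TPM without Dox. SREBF1-215 was at 6.33 TPM with Dox and 1.24 TPM without Dox, and SREBF1-216 at 6.26 and 2.70 TPM. These 3 models are 374, 477 and 698 nt long and went in both directions. The level sum rests on SREBF1-209: with transcripts listed at 0 in 1 library left out, the log2 fold change of SREBF1 was 0.64, past 1.5-fold, against -0.06 over all transcripts.

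The 3 complete SREBF1 mRNAs summed to 7.60 TPM with Dox and 7.79 TPM without Dox (ratio of 0.97 in fragments, interval 0.85 to 1.10). SREBF1-201 was at 5.78 TPM with Dox and 4.60 TPM without Dox (ratio of 1.22 in fragments, interval 1.05 to 1.43). SREBF1-202, which starts near it and adds a 90-base second exon, was at 1.31 and 1.44 TPM. SREBF1-205, which starts farther downstream, was at 0.52 and 1.76 TPM (ratio of 0.29 in fragments, interval 0.19 to 0.43). The level sum therefore joins SREBF1-201, which was higher with Dox, and SREBF1-205, which was lower. The 90-base exon was in 18.4% of the TPM of SREBF1-201 and SREBF1-202 with Dox and in 23.8% without Dox.

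SREBF1 also hosts miR-33b, which lies in an intron (chr17:17813897-17813916 for the 5p arm, GRCh38.p14, minus strand) and is known to repress cholesterol export and fatty acid oxidation genes. Its mature sequence is shown because the SREBF1 TPM was mostly on retained-intron models; capitals mark the seed, bases 2 to 8.
hsa-miR-33b-5p: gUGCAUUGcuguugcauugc
None of the 23 matched SREBF1 transcripts covers these bases, and mature miRNAs were not measured in these libraries.

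**Figure D2:**
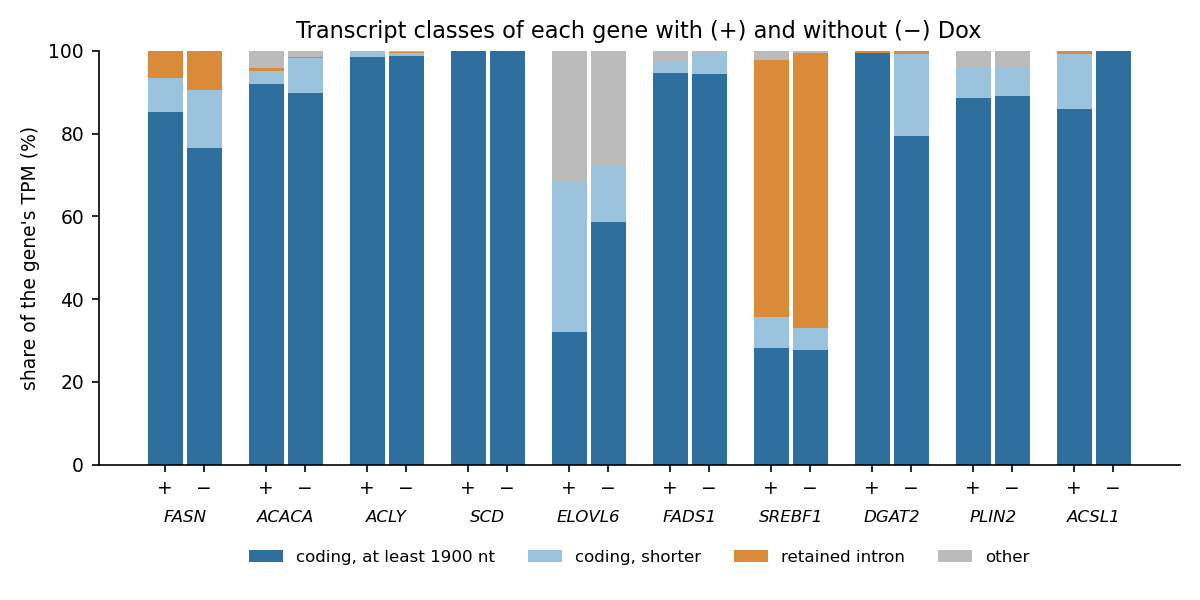
Percent of each gene's TPM on coding transcripts of at least 1900 nt, shorter coding models, retained-intron models and other models, with Dox (+) to the left of without Dox (−), 1 library each. SREBF1 stood out for retained introns, 62.2% with Dox and 66.6% without Dox, and ELOVL6 for the share of short and non-coding models.

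At the last step of triglyceride synthesis, DGAT2 (ENSG00000062282, chromosome 11, 75759512 to 75801535, plus strand), which joins the third acyl chain, was lower with Dox. Its summed level was 13.4 TPM with Dox and 23.1 TPM without Dox, a log2 fold change of -0.74. The fragment ratio was 0.67 (interval 0.60 to 0.76), from 536 fragments with Dox and 619 without Dox. All 4 DGAT2 transcripts at 1 TPM or more in either library were lower. DGAT2-203 and DGAT2-208 reached this level only without Dox, so the cutoff fixed their direction. The complete mRNA DGAT2-201 was at 9.22 TPM with Dox and 12.7 TPM without Dox, and DGAT2-202 at 4.15 and 5.74 TPM. Partial models DGAT2-203 and DGAT2-208, listed at 0 with Dox, were at 3.08 and 1.49 TPM without Dox. Over the complete mRNAs alone the log2 fold change was -0.43 (ratio of 0.71 in fragments, interval 0.63 to 0.79).

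DGAT2-201 and DGAT2-202 differ by the 129-base exon shown above, which adds 43 codons. It was included in 69.0% of complete DGAT2 mRNA TPM with Dox and in 68.8% without Dox. Both forms were lower by nearly the same ratio, 0.71 (interval 0.61 to 0.82) for DGAT2-201 and 0.70 (interval 0.56 to 0.87) for DGAT2-202. The level of DGAT2 differed between the libraries while its exon use was the same within about 1 percentage point.

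PLIN2, a perilipin that coats lipid droplets in hepatocytes and most other cells (ENSG00000147872, chromosome 9, 19108375 to 19149290, minus strand), had the largest difference of the 10 genes. It was at 351 TPM with Dox and 190 TPM without Dox, a log2 fold change of 0.88. The fragment ratio was 1.79 (interval 1.72 to 1.85), from 10043 fragments with Dox and 4376 without Dox. All 5 PLIN2 transcripts at 1 TPM or more were higher with Dox. The complete mRNA PLIN2-201, 1972 nt in 8 exons, was at 310 TPM with Dox and 169 TPM without Dox. The shorter models PLIN2-202, PLIN2-203, PLIN2-206 and PLIN2-207 were at 16.3, 9.71, 8.19 and 5.13 TPM with Dox and at 6.52, 5.98, 4.44 and 2.63 TPM without Dox. PLIN2-201 kept its share of the gene, 88.5% with Dox and 89.1% without Dox.

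ACSL1, a long-chain acyl-CoA synthetase that activates fatty acids for triglyceride synthesis and oxidation (ENSG00000151726, chromosome 4, 184755595 to 184826818, minus strand), was also higher. It was at 15.2 TPM with Dox and 8.41 TPM without Dox, a log2 fold change of 0.78. The fragment ratio was 1.61 (interval 1.44 to 1.81), from 891 fragments with Dox and 430 without Dox. The complete mRNA ACSL1-201 of 3832 nt was at 13.04 TPM with Dox and 7.61 TPM without Dox (ratio of 1.67 in fragments, interval 1.48 to 1.88). Over all coding ACSL1 transcripts of at least 1900 nt the log2 fold change was 0.58, just inside 1.5-fold on the scale of TPM plus 1. Without the added 1 TPM the ratio of TPM was 1.55, and in fragments it was 1.57 (interval 1.39 to 1.76), both past 1.5-fold.

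3 measures of the same libraries were set side by side for each gene: all matched transcripts, coding transcripts of at least 1900 nt, and fragments on transcripts of at least 600 nt. FASN and PLIN2 were past 1.5-fold on all of them. On coding transcripts of at least 1900 nt, 1 gene (PLIN2) was higher and 1 (FASN) lower by 1.5-fold on the scale of TPM plus 1. The pseudocount alone kept ACSL1 out of this count. By the same measure 3.61% of 8150 genes were higher and 2.45% lower. Among the 8 genes with a fragment estimate, 2 (PLIN2 and ACSL1) were higher and 1 (FASN) lower by 1.5-fold. In fragments 4.53% of 9312 genes were higher and 4.50% lower, and nothing is read from these shares about the 10 genes. DGAT2 was just inside that limit in fragments, and ELOVL6 was past it on summed TPM only.

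**Figure D3:**
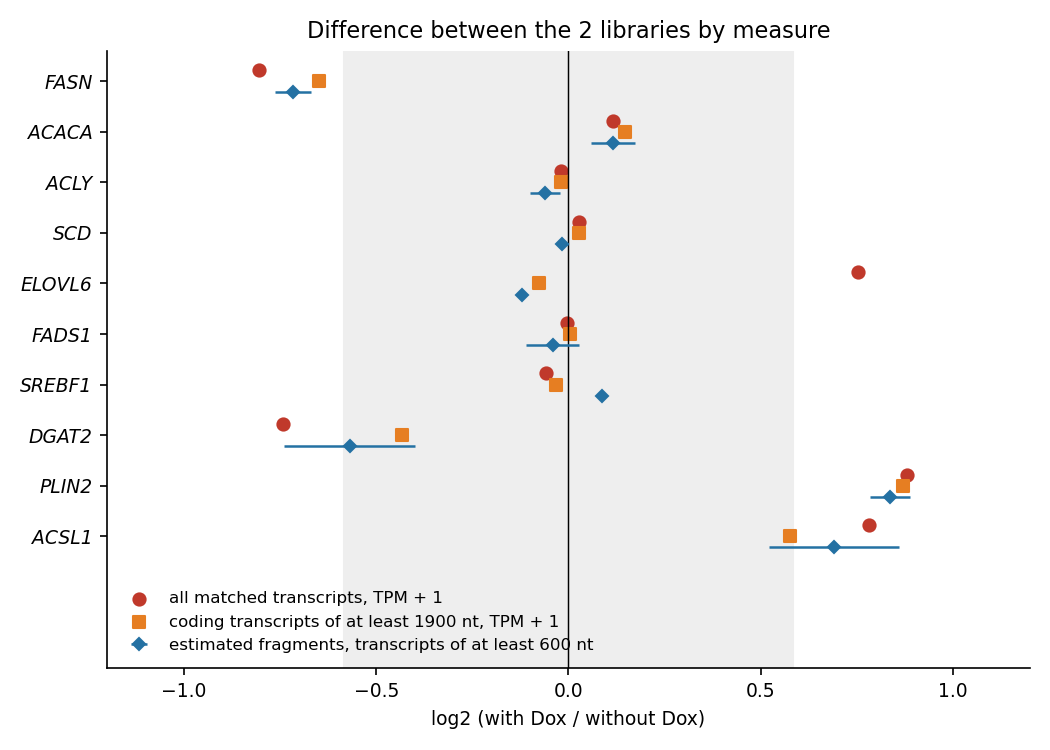
Log2 of the level with Dox over the level without Dox for each gene by 3 measures: TPM of all matched transcripts (circles), TPM of coding transcripts of at least 1900 nt (squares) and fragments on transcripts of at least 600 nt (diamonds, with 95% counting intervals where at least 80% of TPM lay on such transcripts). The grey band is within 1.5-fold. The ELOVL6 circle stands at 0.75 while its square and diamond lie at -0.078 and -0.12.

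Other genes of the pathway, in 8 lists, were mostly level. Of 126 genes listed, 121 had matched transcripts and 90 had a mean of at least 1 TPM. By 1.5-fold, 5 were higher (5.56%) and 5 lower (5.56%), close to the 5.32% and 3.90% of all genes compared. Their median log2 fold change was -0.01.

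For fatty acid synthesis and its carbon supply, 1 of 11 genes was past 1.5-fold, and the median was -0.13. MECR, an enoyl reductase of mitochondrial fatty acid synthesis, was at 14.4 TPM with Dox and 23.2 TPM without Dox (ratio of 0.62 in fragments, interval 0.50 to 0.77). The citrate carrier SLC25A1 and the acetate-activating ACSS2 had log2 fold changes of -0.13 and -0.036. In fragments the ratio was 0.91 for SLC25A1 (interval 0.86 to 0.96) and 0.83 for ACSS2 (interval 0.78 to 0.90). None of the 12 other desaturation and elongation genes passed 1.5-fold. The elongases of longer chains ELOVL2 (77.4 TPM with Dox, 106 TPM without Dox) and ELOVL7 (6.04 and 8.76 TPM) were at -0.45 and -0.47. FADS2, the delta-6 desaturase, was at -0.010 on summed TPM, but its ratio in fragments was 0.85 (interval 0.77 to 0.94). Of FADS2 TPM with Dox, 25.1% lay on transcripts listed at 0 without Dox. Of its TPM without Dox, 7.99% lay on transcripts listed at 0 with Dox.

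Of 12 other glycerolipid synthesis genes, 2 were higher and 1 lower by 1.5-fold, with a median of -0.05. GPAT3, which adds the first acyl chain to glycerol phosphate, was at 6.88 TPM with Dox and 3.07 TPM without Dox (ratio of 2.18 in fragments, interval 1.74 to 2.75). LPIN2, a phosphatidate phosphatase, was at 3.67 TPM with Dox and 0.64 TPM without Dox, a TPM ratio of 5.76 and a fold of 2.85 on the scale of TPM plus 1, and 36.7% of its TPM with Dox lay on transcripts listed at 0 without Dox. MOGAT2, a monoacylglycerol acyltransferase, was at 4.92 and 8.63 TPM (ratio of 0.59 in fragments, interval 0.48 to 0.72). GPAM, the mitochondrial acyltransferase and the most abundant gene of this list, was at 177 TPM with Dox and 166 TPM without Dox. Of these isoenzymes of the first acylation, GPAT3 was past 1.5-fold and the more abundant GPAM was not.

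Of 11 other lipid droplet genes, 2 were higher and 1 lower by 1.5-fold, with a median of 0.16. HSD17B11, a droplet-associated dehydrogenase, was at 498 TPM with Dox and 299 TPM without Dox (ratio of 1.64 in fragments, interval 1.59 to 1.69). BSCL2, which codes for seipin, was at 3.58 and 1.51 TPM, and 52.5% of its TPM with Dox lay on transcripts of at least 600 nt. On those its fragment ratio was 1.36, inside 1.5-fold, from 35 fragments with Dox and 20 without Dox. CIDEC, a droplet fusion protein, was lower at 4.65 TPM with Dox and 8.64 TPM without Dox (ratio of 0.50 in fragments, interval 0.37 to 0.67). PLIN3, the ubiquitous perilipin, was at 80.3 and 72.9 TPM (ratio of 1.08 in fragments, interval 1.02 to 1.14). PLIN1, PLIN4 and PLIN5 were below 1 TPM in both libraries, so that PLIN2 and PLIN3 made up nearly all perilipin TPM.

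In lipolysis, none of 7 genes passed 1.5-fold. PNPLA2, the triglyceride lipase ATGL, was at 58.8 TPM with Dox and 42.2 TPM without Dox, a log2 fold change of 0.47, and LIPA, the lysosomal acid lipase, at 105 and 134 TPM, or -0.35. Of 13 genes of fatty acid uptake and activation, none was higher and 2 were lower by 1.5-fold, with a median of -0.26, the lowest of the 8 lists. ACSF3, which activates malonate in mitochondria, was at 7.70 TPM with Dox and 16.0 TPM without Dox (ratio of 0.56 in fragments, interval 0.48 to 0.66). SLC27A5, a bile acid and fatty acid CoA ligase, was at 17.8 TPM with Dox and 27.5 TPM without Dox. Its ratio in fragments, 0.67 (interval 0.52 to 0.86), was inside 1.5-fold. The relatives of ACSL1 lay within 1.5-fold: ACSL3 was at 105 and 88.4 TPM, ACSL4 at 22.8 and 18.4 TPM, and ACSL5 at 48.1 TPM with Dox and 57.7 TPM without Dox.

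Regulators of lipogenesis were level, with 17 of 18 within 1.5-fold and a median of 0.03. SREBF2, the sterol-regulated relative of SREBF1, was at 54.2 TPM with Dox and 57.1 TPM without Dox. MLXIPL, the carbohydrate-responsive factor ChREBP, was at 58.9 and 59.1 TPM, and the LXR-alpha gene NR1H3 at 20.4 and 22.9 TPM. PRKAA2, a catalytic subunit of AMP-activated kinase, which inhibits the carboxylase, was the exception at 7.41 TPM with Dox and 4.23 TPM without Dox (ratio of 1.70 in fragments, interval 1.54 to 1.88). Its relative PRKAA1 was at 75.7 and 68.1 TPM. INSIG1, the sterol-responsive SREBP retention protein, was listed at 0.0613 TPM with Dox and at 0 without Dox over its 6 matched transcripts, so no comparison of it was made. Whether its reads were assigned to a transcript left unmatched here was not tested, and the value is not a measured absence. PLIN2 and ACSL1 are also known targets of PPAR nuclear receptors. The receptor gene PPARG was below the filter on low values, at 1.23 TPM with Dox and 0.32 TPM without Dox. From 33 fragments with Dox and 6 without Dox its ratio was 4.28 (interval 1.77 to 12.5). Of PPARG TPM with Dox, 87.8% lay on transcripts listed at 0 without Dox. The more abundant PPARA was at 14.5 TPM with Dox and 12.3 TPM without Dox (ratio of 1.08 in fragments, interval 1.01 to 1.17). PPARD was at 6.98 and 7.73 TPM (ratio of 0.90 in fragments, interval 0.78 to 1.03). A role of these receptors was not tested. Of 6 other PPAR targets none passed 1.5-fold, with CPT1A at 4.03 and 3.14 TPM and ACADVL at 134 and 108 TPM.

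**Figure D4:**
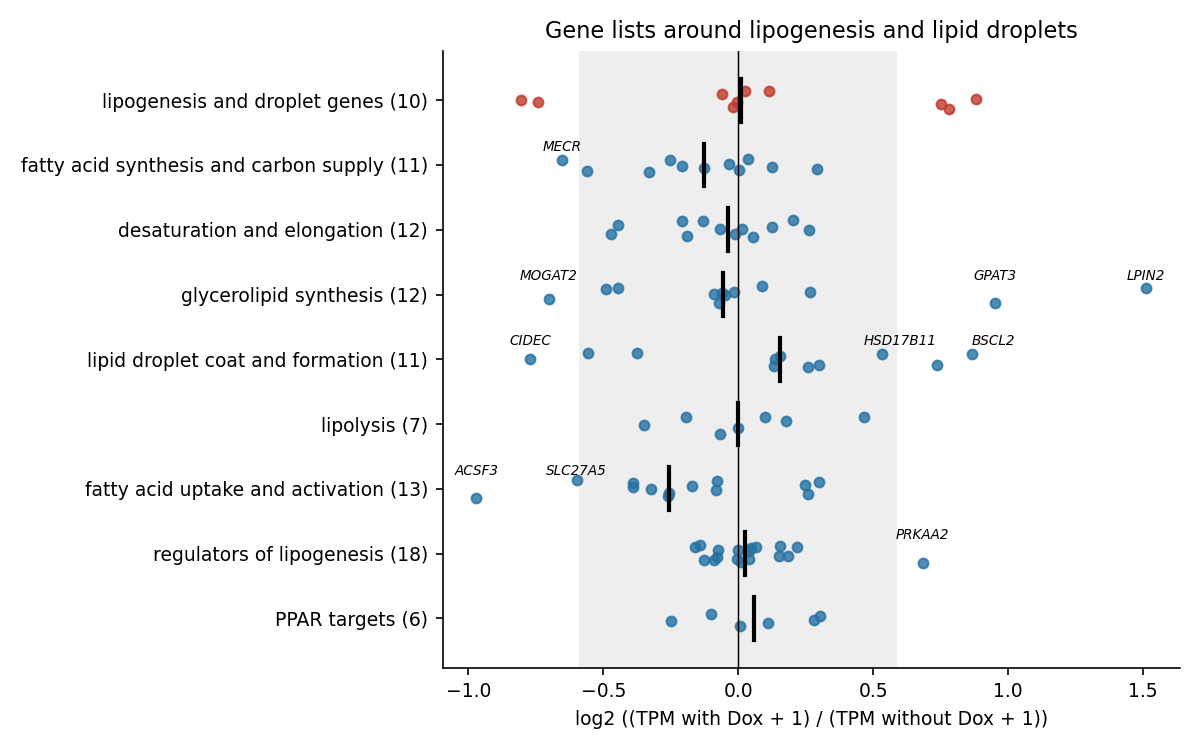
Log2 fold change on the scale of TPM plus 1, with Dox over without Dox, for the lipogenesis and droplet genes (top) and for 8 lists of other pathway genes with a mean of at least 1 TPM, the number of genes in brackets. Black bars are medians, the grey band is within 1.5-fold, and the 10 list genes past it are named.

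Fly Smaug binds RNA hairpins whose 5-base loop reads CNGGN. The most abundant complete coding mRNA of each of the 10 genes was searched for such loops closed by a stem of 5 pairs, G-U pairs allowed. FASN-201 held 4 and DGAT2-201 held 3, or 0.47 and 1.22 per 1000 bases, and FADS1-201 also held 3 (0.66). PLIN2-201, ACACA-231, ACLY-202 and SREBF1-201 held 1 each, and SCD-201, ELOVL6-201 and ACSL1-201 held none. Among 11054 mRNAs of the genes compared, 38.0% held at least 1, and the 90th percentile was 0.56 per 1000 bases. These were the most abundant coding transcript of each gene at any length, including short models. The mRNAs of the 10 genes were all at least 1900 nt, so the 2 sets are unlike and nothing is read from the comparison. The FASN sites all lay in the coding sequence, and those of DGAT2 lay outside it, 2 in the 5-prime and 1 in the 3-prime untranslated region. They are printed for the lower genes FASN and DGAT2 and for PLIN2, with the loop in capitals and positions counted from the first base of the mRNA.
FASN-201 from 1487: tgctgCGGGCcagcg
FASN-201 from 4483: ttccgCTGGGtggag
FASN-201 from 5906: tcggcCTGGAgttgg
FASN-201 from 6070: ggggcCCGGGgcctc
DGAT2-201 from 180: tggccCCGGGggccg
DGAT2-201 from 244: ctgggCGGGCttcag
DGAT2-201 from 1925: ggcatCTGGAatgct
PLIN2-201 from 218: tgactCGGGTggtca
Both the lower gene FASN and the level gene FADS1 held several loops, and a loop in sequence says nothing of binding in these cells.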

How the data were processed

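The authors deposited TPM values for 184844 Ensembl transcripts in 2 libraries. The submitters' processing notes name Trimmomatic, Salmon and GRCh38.p13. Versions, options, the annotation release and strandedness are likewise not given in the sources used here. Identifiers without version were matched to GENCODE release 29 (161798 matched, 93.3% of TPM in each library), and matched TPM was summed per gene, so a newer transcript of a gene is missed. Annotated genes on the opposite strand overlap ACLY, FADS1, SREBF1, DGAT2 and ACSL1. As strandedness is not given, whether reads from bases shared by such pairs were told apart is not known.

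Log2 fold changes used a pseudocount of 1 TPM, a minimum mean of 1 TPM and a counted fold of 1.5. The genes, lists, named-gene rule and alternatives were chosen with earlier results of these libraries known. Named were the 10 genes, list genes past 1.5-fold or, where none passed, the 2 with the largest difference, and a gene's transcripts at 1 TPM with 10% of its TPM; others were chosen after their values were seen. List genes without a matched transcript were not analysed here.

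In genes with 1 transcript, 600 nt or longer, the product of TPM and length less 305 nt (with Dox) or 310 nt (without Dox) gathered at multiples of 1 value. Of values under 5.5 fragments, 79.6% (535 of 672) and 76.5% (515 of 673) lay within 0.1 of a whole number, where 20% would by chance; the fit used these same values. Intervals are exact 95% binomial (Clopper-Pearson), given for a gene where at least 80% of its TPM lay on transcripts of at least 600 nt. The procedure was tested on simulated data. The simulation drew counts from the same step model on transcripts of at least 600 nt. It therefore does not check the assignment of fragments to transcripts or variation between cultures. Python 3.11.15, numpy 2.4.6, pandas 2.3.3, scipy 1.17.1 and matplotlib 3.10.9 were used.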

Additional observations from a re-analysis of the deposited data

How the results depend on the processing

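Under 8 other settings (pseudocounts of 0.1 and 5 TPM, rescaling without mitochondrial transcripts or to a median of 0, protein-coding transcripts only, fragments, leaving out transcripts listed at 0 in 1 library and, chosen after the data were seen, coding transcripts of at least 1900 nt only) the log2 fold change stayed between -0.83 and -0.65 for FASN, 0.84 and 0.90 for PLIN2, 0.58 and 0.84 for ACSL1, and -0.78 and -0.43 for DGAT2. ELOVL6 reversed to -0.12 in fragments and to -0.078 on coding transcripts of at least 1900 nt, since its short models are left out there by construction. SREBF1 ranged from -0.081 to 0.64, the highest value without transcripts listed at 0 in 1 library, which removes SREBF1-209. The count of genes at least 1.5-fold lower was 1 in fragments, 1 without transcripts listed at 0 and 1 on coding transcripts of at least 1900 nt, where the count of higher genes was also 1. Without transcripts listed at 0 the count of higher genes stayed 3, but ELOVL6 (0.47) left it and SREBF1 (0.64) entered it. Over all genes compared in that setting, 3.94% were higher and 3.12% lower. The count of list genes past 1.5-fold was 3 with a pseudocount of 5 TPM, against 10, and stayed within 1.5 times of 10 with no minimum or a minimum of 5 TPM. No paired analysis was possible because each group has 1 library. Leaving out a library was not possible for the same reason. No setting measures variation between cultures.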
